A study of Mus musculus with 8 samples.

Results

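Lipid handling was followed through 8 genes in monocyte-derived dendritic cells (moDCs) taken from the inflamed central nervous system. The 8 were chosen by name from the 12256 genes of the deposited table, and all 8 were found there. They fall into 4 genes of uptake and storage (Cd36, Lpl, Fabp5 and Plin2), 3 of efflux (Abca1, Abcg1 and Apoe) and 1 transcriptional regulator (Nr1h3).

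The cells came from C57Bl/6 mice with experimental autoimmune encephalomyelitis (EAE), a model of multiple sclerosis, raised in every animal of both groups by immunization with a myelin peptide, MOG35-55. NPC mice received 1000000 neural precursor cells in 10 μL of PBS into the cerebrospinal fluid, and PBS mice received 10 μL of PBS alone. The injection was made at the disease peak, 2 to 4 days after onset by the series' design text and 4 days by the sample protocols, and 7 days after it moDCs were isolated from spinal cord and hindbrain. There were 4 libraries for each treatment, NPC A to D and PBS 1 to 4, each made from a pool of 4 to 7 mice. There were no healthy or untreated mice among these samples, and the ages of the mice are not in the labels. The sort took CD45-high, CD11b-positive, Ly6C-positive, CD11c-intermediate, MHC class II-positive cells without Ly6G. The 12 transcripts checked for that identity (among them Ptprc, Itgam, Itgax, H2-Ab1 and Ly6c2) were all present. Of the 12, 0 were called between groups, as were 0 of all 12256 genes, so the count does not show equal identity.

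Phagocytes in demyelinating tissue take up lipid from myelin debris and lipoproteins. The scavenger receptor CD36 and lipoprotein lipase bring fatty acids in, fatty acid-binding proteins carry them through the cytosol, and surplus is esterified into droplets coated by perilipins. Cholesterol leaves through the transporters ABCA1 and ABCG1 onto acceptors such as apolipoprotein E. The nuclear receptor LXR-alpha, encoded by Nr1h3, senses oxidized sterols and drives Abca1, Abcg1 and Apoe, while PPAR receptors sense fatty acids and drive Cd36 and Plin2.

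LXR and PPAR bind DNA together with RXR at direct repeats of a 6-letter core, with 4 letters between the repeats for LXR (DR4) and 1 for PPAR (DR1). The promoter windows of the RefSeq set (build GRCm38.p6, 250 bases before to 50 bases after a start site) held 5 of the 8 genes: Abca1, Plin2, Cd36, Apoe and Nr1h3. The windows of Plin2 and Cd36 are shown for their DR1 matches, the closest found in these genes, and that of Abca1 because it alone among the 5 held a DR4 match within 3 mismatches. Each is read 5′ to 3′ on the gene's own strand, which is the minus strand for all of them, and capitals mark the best match to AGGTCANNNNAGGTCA (Abca1) or AGGTCANAGGTCA (Plin2 and Cd36), which in each of them lies in the reverse orientation.
Abca1 (chr4:53159846-53160145): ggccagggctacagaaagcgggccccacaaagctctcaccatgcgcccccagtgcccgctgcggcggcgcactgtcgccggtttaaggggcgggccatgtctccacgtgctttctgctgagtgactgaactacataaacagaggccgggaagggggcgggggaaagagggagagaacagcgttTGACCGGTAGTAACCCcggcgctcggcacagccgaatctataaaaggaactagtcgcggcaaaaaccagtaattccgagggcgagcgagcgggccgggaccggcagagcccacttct
Plin2 (chr4:86670010-86670309): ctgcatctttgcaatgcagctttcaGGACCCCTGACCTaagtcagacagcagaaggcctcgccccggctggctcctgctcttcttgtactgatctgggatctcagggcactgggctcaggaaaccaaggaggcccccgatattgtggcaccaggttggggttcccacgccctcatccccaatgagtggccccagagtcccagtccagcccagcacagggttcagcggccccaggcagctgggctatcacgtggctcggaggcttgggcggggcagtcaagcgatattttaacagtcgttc
Cd36 (chr5:17835847-17836146): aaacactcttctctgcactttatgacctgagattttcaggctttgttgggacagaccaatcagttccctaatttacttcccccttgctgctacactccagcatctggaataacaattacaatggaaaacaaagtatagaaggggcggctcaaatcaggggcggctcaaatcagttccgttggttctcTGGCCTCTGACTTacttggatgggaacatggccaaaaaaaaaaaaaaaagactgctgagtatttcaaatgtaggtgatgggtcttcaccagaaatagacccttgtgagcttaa

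Read on its own strand, the Abca1 match is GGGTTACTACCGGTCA, with 3 mismatches in the 12 fixed letters. Of 32851 promoter windows of the same length, 21.9% held a DR4 match that good on either strand. The best DR1 matches of Plin2 (AGGTCAGGGGTCC) and Cd36 (AAGTCAGAGGCCA) had 2 mismatches each, a quality that 3.86% of windows reached. Apoe had a DR1 match only at 3 mismatches, in 1 of its 3 windows, a level reached by 24.6% of windows, and Nr1h3 had none at that level in its 2 windows. These are matches of letters and not measured binding.

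The genes spanned a wide range of expression. Between genes, levels were compared as log2 normalised expression per kilobase of the longest protein-coding transcript in GENCODE vM21. Apoe, which packages cholesterol for export, stood highest at 10.76 as a mean over the 8 libraries. Fabp5, the epidermal fatty acid-binding protein, followed at 7.07, Plin2, the droplet coat protein perilipin 2, at 6.23 and Abca1 at 5.60. Abcg1 was at 4.58, Lpl at 4.11, Nr1h3 at 2.92 and Cd36 lowest at 2.06. Each of these neighbours kept its order in 8 of 8 libraries, except that Abcg1 lay above Lpl in 7 of 8. With merged exons as the length, Abca1 moved up to rank 2 and Fabp5 down to rank 4, since the 987-base coding transcript of Fabp5 is much shorter than its merged exons (3567 bases).

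Before the comparison, some facts of the libraries bear on it. The table held 2653818 to 7003542 reads per NPC library and 7702189 to 21068166 per PBS library, so NPC libraries were shallower without overlap; of the 8 genes, the lowest count in any library was 30 reads. NPC A and PBS 1 stood apart from the other 6 libraries: the mean log2 value of 12 immediate-early genes was 6.89 in NPC A and 6.77 in PBS 1, against 8.64 to 8.83 in the other NPC and 8.73 to 8.97 in the other PBS libraries. Markers of other cells were present at low or moderate levels. The summed level of 9 lymphocyte markers was 77.5 to 106 reads per 1000000 in NPC and 59.9 to 70.2 in PBS libraries, without overlap. Their mean log2 values did overlap, at 2.56 to 3.24 in NPC and 2.33 to 2.58 in PBS libraries. The summed level of 12 microglia markers was 1059 to 1527 in NPC and 1106 to 1450 in PBS libraries. All 5 border macrophage markers found were higher in NPC libraries (summed level 312 to 576 in NPC, 292 to 519 in PBS). Of these 5, 0 were called, as were 0 of all 12256 genes. By mean, 8 of 9 lymphocyte, 8 of 12 microglia, 6 of 7 neutrophil and 6 of 9 neural and vascular markers were higher. Over all genes, 47.5% had a fold change below 0. Summed neutrophil markers (7 found, Ly6g not among them) were at 259 to 337 in NPC and 217 to 291 in PBS libraries, and summed neural and vascular markers (9 found) at 203 to 239 in NPC and 188 to 227 in PBS libraries. The part of these cells in the results was not tested. In bulk RNA, fewer cells of a type and less RNA per cell cannot be told apart.

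Whether NPC treatment shifted lipid handling was asked of each gene in a fit over all genes. None of the 8 genes passed: with p-values adjusted over all genes by the Benjamini-Hochberg method, limma called 0 of the 8 and 0 of 12256 genes (background 0%), and the smallest adjusted p of any gene was 0.382. The fit with voom weights also called 0, while 1387 genes had an unadjusted p under 0.05 in the first fit and 1576 with voom weights. At an unadjusted p under 0.05 there were 2 of the 8, Fabp5 and Abcg1, both lower in NPC libraries, against a background of 5.32% of genes lower in that way (6% higher, 11.3% in either direction). The same 2 were the ones whose groups did not overlap, against 3.25% of all genes that lay lower without overlap, 3.53% that lay higher and 6.78% in either direction. The NPC mean lay below the PBS mean for 6 of the 8 and above for 2, and 47.5% of all genes had a fold change below 0.

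**Figure D1:**
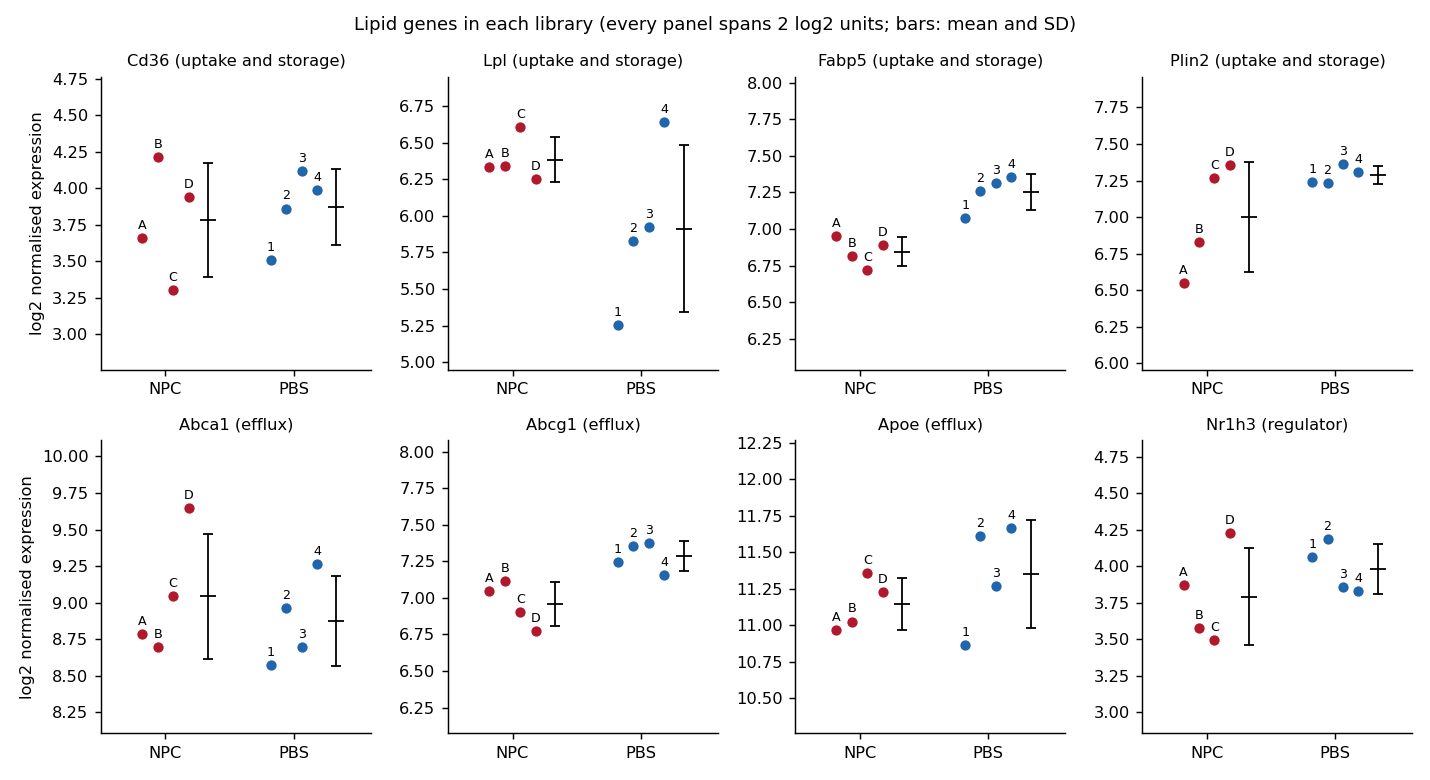
Log2 normalised expression (vertical axis) of the 8 lipid genes in each library, NPC A to D in red and PBS 1 to 4 in blue, with the group mean and SD as a black bar. The NPC points of Fabp5 (6.72 to 6.95) and Abcg1 (6.78 to 7.12) all lie under the PBS points (7.07 to 7.36 and 7.16 to 7.38), while the other 6 genes overlap.

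On the uptake side, Cd36 encodes the class B scavenger receptor for oxidized lipoproteins and long-chain fatty acids. It was at 3.66, 4.22, 3.30 and 3.94 log2 normalised expression in NPC A to D, against 3.51, 3.86, 4.12 and 3.99 in PBS 1 to 4. Both groups spread widely and overlapped, with the lowest and the highest value both in NPC libraries. It had 35 to 101 reads per NPC library and 143 to 284 per PBS library. Its log2 fold change, NPC minus PBS, was -0.09 (SE 0.21, 95% interval -0.54 to 0.36, limma adjusted p = 0.906, n = 4 each), and it was 0.070 without NPC C and -0.17 without PBS 1 and NPC A. Cd36 lies on chromosome 5 (17781690 to 17888801, minus strand, mm10). Its promoter window shown above lies inside these bounds, at an internal start site and not at base 17888801, the 5′ end of the gene.

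Lpl encodes lipoprotein lipase, which frees fatty acids from lipoprotein triglyceride. It was at 6.34, 6.34, 6.61 and 6.25 in NPC A to D, against 5.26, 5.83, 5.93 and 6.64 in PBS 1 to 4. The NPC libraries were tight, with an SD of 0.15, and the PBS libraries spread over more than 1 log2 unit, with an SD of 0.57. All 4 NPC values lay above those of PBS 1, 2 and 3, and PBS 4 lay above them all. NPC over PBS, the log2 fold change was 0.47 (SE 0.23, interval -0.02 to 0.96, limma adjusted p = 0.461). It was 0.25 without PBS 1, 0.71 without PBS 4 (unadjusted p = 0.00131, adjusted p = 0.477) and 0.27 without PBS 1 and NPC A, so single PBS libraries set its size. Lpl is transcribed from chromosome 8 (68880491 to 68907448, plus strand, mm10).

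Markers of other central nervous system phagocytes were set beside Lpl. P2ry12, a defining microglia gene, was at 3.96, 5.47, 5.03 and 5.50 in NPC A to D and at 3.96, 4.54, 4.48 and 5.23 in PBS 1 to 4. Mrc1, a border macrophage gene, was at 5.51, 6.44, 6.37 and 6.09 in NPC A to D and 5.03, 5.21, 5.85 and 6.90 in PBS 1 to 4. Among PBS libraries both genes, like Lpl, were lowest in PBS 1 and highest in PBS 4. Fabp5, Abca1 and Apoe had the same lowest and highest PBS library, while Cd36, Plin2, Abcg1 and Nr1h3 did not. Among NPC libraries Lpl was highest in NPC C, P2ry12 in NPC D and Mrc1 in NPC B. The NPC values of Lpl had an SD of 0.15. P2ry12 was at 3.96 in both NPC A and PBS 1. Lpl was at 6.34 in NPC A and 5.26 in PBS 1. P2ry12 and Mrc1 are each 1 gene of their marker lists (12 microglia and 5 border macrophage markers found). The sort gate was CD45-high and Ly6C-positive, and microglia transcripts were still found in every library (Tmem119 at 3.20 to 4.74 in NPC, 3.39 to 4.44 in PBS). The part of these cells in the Lpl values was not tested.

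Fabp5 carries fatty acids in the cytosol and delivers them to nuclear receptors. It was at 6.95, 6.81, 6.72 and 6.89 in NPC A to D, against 7.07, 7.26, 7.31 and 7.36 in PBS 1 to 4. Every NPC library lay below every PBS library, and the SD within groups was 0.10 in NPC and 0.12 in PBS libraries. Of all genes, whatever their read count, 4.64% varied less within groups (pooled SD 0.11, against a median of 0.27 over all genes). The log2 fold change was -0.41 (SE 0.11, interval -0.64 to -0.17), or 0.755 times the PBS level, with an unadjusted p of 0.00273 and a limma adjusted p of 0.382. It was -0.50 without PBS 1 and NPC A, and across 20 alternatives it stayed between -0.50 and -0.37 with the unadjusted p at 0.0111 or lower. Each NPC library held 287 to 781 reads of it and each PBS library 1476 to 3000. The gene is on chromosome 3 (10012548 to 10016607, plus strand, mm10), and RefSeq lists 1 pseudogene named after it, Fabp5l2, so reads shared with copies cannot be assigned with certainty.

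On the storage side, Plin2 encodes perilipin 2, the coat protein of lipid droplets and a common measure of lipid loading. It was at 6.55, 6.83, 7.27 and 7.35 in NPC A to D, against 7.24, 7.23, 7.36 and 7.31 in PBS 1 to 4. The PBS libraries agreed closely (SD 0.06), whereas NPC A and B lay well below them and NPC C and D within their range (NPC SD 0.38). Plin2 had a log2 fold change of -0.29 (SE 0.16, interval -0.64 to 0.07, limma adjusted p = 0.532). It was -0.14 without NPC A, -0.40 without NPC D and -0.15 without PBS 1 and NPC A. Plin2 is on chromosome 4 (86648386 to 86670060, minus strand, mm10).

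On the efflux side, Abca1 encodes the transporter that loads cholesterol and phospholipid onto lipid-poor apolipoproteins. It was at 8.79, 8.70, 9.04 and 9.65 in NPC A to D, against 8.57, 8.96, 8.70 and 9.27 in PBS 1 to 4. The groups overlapped, and NPC D was the highest library. Abca1 had a log2 fold change of 0.17 (SE 0.21, interval -0.28 to 0.62, limma adjusted p = 0.794), which was -0.031 without NPC D, 0.069 without PBS 1, 0.30 without PBS 4 and 0.15 without PBS 1 and NPC A. After correction for GC content and transcript length it was 0.04. The gene lies on chromosome 4 (53030787 to 53159895, minus strand, mm10). The start site of the promoter window shown above is base 53159895, the 5′ end of the gene on its strand.

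Abcg1 encodes the transporter that passes cholesterol to mature lipoprotein particles. It was at 7.05, 7.12, 6.90 and 6.78 in NPC A to D, against 7.24, 7.36, 7.38 and 7.16 in PBS 1 to 4. Every NPC library lay below every PBS library, with the smallest gap between NPC B and PBS 4. The log2 fold change was -0.32 (SE 0.11, interval -0.57 to -0.08), or 0.798 times the PBS level, with an unadjusted p of 0.0138 and a limma adjusted p of 0.390. It was -0.37 without PBS 1 and NPC A, and between -0.38 and -0.26 over 20 alternatives, all with an unadjusted p of 0.0447 or lower. Each NPC library held 354 to 723 reads of it and each PBS library 1291 to 3210. Abcg1 is on chromosome 17 (31057675 to 31117988, plus strand, mm10).

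Apoe was the most abundant of the 8 genes. It was at 10.97, 11.03, 11.36 and 11.23 in NPC A to D, against 10.87, 11.61, 11.27 and 11.66 in PBS 1 to 4. The groups overlapped: PBS 1 was the lowest library of all and PBS 2 and 4 the highest. For Apoe the log2 fold change was -0.21 (SE 0.20, interval -0.64 to 0.22, limma adjusted p = 0.729), -0.37 without PBS 1, -0.12 without PBS 2, -0.11 without PBS 4 and -0.31 without PBS 1 and NPC A. It was 0.011 after correction for GC content and transcript length; the transcript of Apoe has 59.5% GC, against a median of 49.0% over all genes. Apoe lies on chromosome 7 (19696109 to 19699188, minus strand, mm10).

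Nr1h3, the gene of LXR-alpha, was at 3.87, 3.58, 3.49 and 4.23 in NPC A to D, against 4.06, 4.19, 3.86 and 3.83 in PBS 1 to 4. NPC B and C were the lowest libraries and NPC D the highest, so the groups overlapped. The log2 fold change was -0.19 (SE 0.18, interval -0.58 to 0.20, limma adjusted p = 0.722), resting on 30 to 123 reads per NPC library and 128 to 356 per PBS library. It was -0.34 without NPC D, -0.093 without NPC C, -0.12 without NPC B, -0.12 without PBS 2 and -0.19 without PBS 1 and NPC A. After the GC and length correction it was -0.032. Nr1h3 is on chromosome 2 (91184061 to 91202834, minus strand, mm10), and 34 bases of its exons overlap Gm13783, a non-coding transcript on the same strand.

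**Figure D2:**
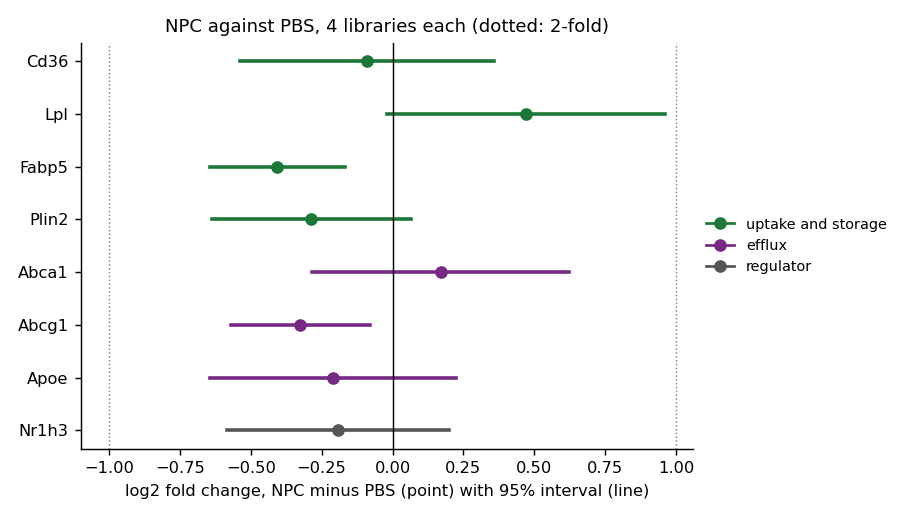
Log2 fold change of each gene, NPC minus PBS (point), with its 95% interval from limma (line), coloured by role. The intervals of Fabp5 and Abcg1 lie below 0, those of the other 6 genes include 0, and all 8 lie between the dotted lines at a 2-fold difference.

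The precision bounded the size of any change in these genes. For all 8, and for 79.1% of all genes, a doubling and a loss to 0.5 times the PBS level both lay outside the 95% interval. For Lpl, at the wide end, the interval allowed a level up to 1.95 times that of PBS, and in 6 of 20 alternatives its upper end passed a doubling (at most 1.09 on the log2 scale, without PBS 4). A p that misses the threshold does not show that the levels were equal.

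The contrast of the 2 sides of the pathway, uptake and storage against efflux, was close between the groups. The mean log2 value of Cd36, Lpl, Fabp5 and Plin2 was 5.88, 6.05, 5.97 and 6.11 in NPC A to D, against 5.77, 6.05, 6.18 and 6.32 in PBS 1 to 4. That of Abca1, Abcg1 and Apoe was 8.93, 8.95, 9.10 and 9.22 in NPC A to D, against 8.89, 9.31, 9.12 and 9.36 in PBS 1 to 4. PBS 1 was the lowest and PBS 4 the highest library on both sides.

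The difference of the 2 means, uptake and storage minus efflux, was -3.06, -2.90, -3.13 and -3.11 in NPC A to D, against -3.12, -3.27, -2.94 and -3.04 in PBS 1 to 4. It averaged -3.05 ± 0.10 in NPC and -3.09 ± 0.14 in PBS libraries (SD, n = 4 each). The groups therefore differed by 0.044, under the pooled SD of 0.12. Without PBS 1 and NPC A the difference was 0.037. The means are not divided by gene length, so only the difference between groups can be read from them. No test was made of this contrast.

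**Figure D3:**
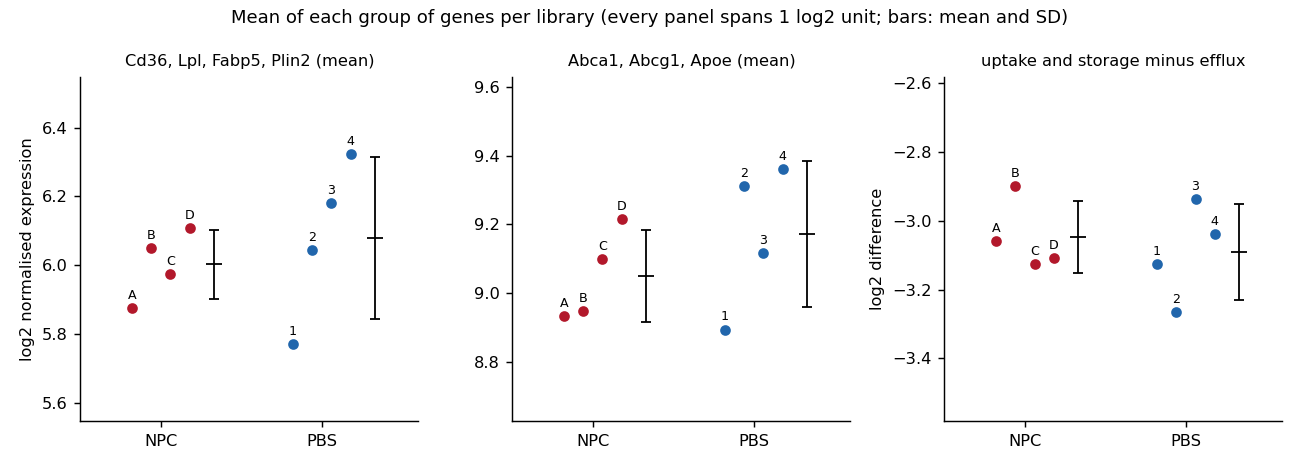
Mean log2 normalised expression per library of the 4 uptake and storage genes (left), the 3 efflux genes (middle) and the log2 difference of the 2 means (right), with group mean and SD as black bars. The differences of the NPC libraries (-3.13 to -2.90) lie inside the range of the PBS libraries (-3.27 to -2.94) except for NPC B.

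Within each side the genes lay in different directions. On the uptake and storage side, Fabp5 and Plin2 lay lower and Lpl higher in NPC libraries, and the log2 value of Lpl minus that of Fabp5 was -0.62, -0.47, -0.11 and -0.63 in NPC A to D, against -1.82, -1.43, -1.38 and -0.71 in PBS 1 to 4. Those ranges did not overlap, though NPC D and PBS 4 lay close. On the efflux side, Abca1 minus Abcg1 was 1.74, 1.58, 2.14 and 2.87 in NPC A to D, against 1.33, 1.61, 1.32 and 2.11 in PBS 1 to 4, with overlap. Both pairs were picked after their values were seen and are given without a test.

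The genes also differed in how steady they were between pools of 1 group. Fabp5 and Abcg1 were among the steadier genes of the table, with 4.64% and 8.19% of genes varying less within groups. Lpl was among the more variable, with 74.5% varying less, and so were Abca1 (68.9%) and Cd36 (62.6%). These shares are over genes of every read count, and low counts add to the spread: in NPC B 22.4% of genes had under 10 reads. No comparison with genes of like level was made.

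The genes whose centred log2 values followed each of the 8 most closely over the 8 libraries were sought among 7696 genes with a mean of at least 3. The measure was the root mean square difference in log2 units. The spread of the 8 genes around their own means, in the same measure, ran from 0.197 (Abcg1) to 0.431 (Lpl). A closest gene among so many is found for any gene, and steadier genes get smaller distances. No test was made of these matches. Fabp5 was followed by C1qbp (0.0658) and Entpd7 (0.0724), and Abcg1 by Ubn1 (0.0515) and Rbm8a (0.0573). Plin2 was followed by Dpagt1 (0.0376) and Scamp1 (0.0872), and Lpl by Arhgap5 (0.140) and Gm9392 (0.159). Abca1 was followed by Tpp1 (0.0702) and Ebag9 (0.0871), and Apoe by Gm9385 (0.109) and Glce (0.115). Cd36 was followed by Tagap (0.0936) and Snhg12 (0.101), and Nr1h3 by Ppard (0.115) and Sun1 (0.119).

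The other genes of lipid handling were split between the directions. Of 90 genes in 4 lists, 78 were in the table, with 38 higher and 40 lower in NPC libraries, a median log2 fold change of -0.01 (0.02 over all genes) and 0 called by limma over all genes. At an unadjusted p under 0.05 there were 10 of the 78 (4 higher, 6 lower), beside the 11.3% of all genes. Of the 78, 2 lay higher and 4 lower without overlap of the groups, beside 3.53% and 3.25% of all genes. The genes named below were picked by their p, so a lack of overlap among them is no separate result.

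Of 14 other uptake genes 7 were higher and 7 lower, with a median of 0.02, but 3 were higher and 11 lower without NPC D. Slc27a4, a fatty acid transporter, had a log2 fold change of -0.49 (SE 0.25), and Lrp1, a large endocytic receptor of lipoprotein remnants, had -0.26 (SE 0.15), with overlapping groups for both.

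Of 20 other storage and hydrolysis genes 8 were higher and 12 lower, with a median of -0.05. Plin3, another perilipin, averaged 3.36 ± 0.41 in NPC libraries and 3.92 ± 0.19 in PBS libraries (-0.56, SE 0.21, limma adjusted p = 0.390), and Agpat4, an acyltransferase of phospholipid synthesis, 4.97 ± 0.41 in NPC libraries and 5.48 ± 0.27 in PBS libraries (-0.51, SE 0.20). Dgat2, which makes triglyceride, had -0.66 (SE 0.33) from as few as 6 reads, and Acsl1, which activates fatty acids, had 0.23 (SE 0.14).

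Of 21 other genes of efflux and sterol traffic 12 were higher and 9 lower, with a median of 0.01. Npc2, which hands cholesterol out of the lysosome, averaged 9.34 ± 0.19 in NPC libraries and 9.72 ± 0.13 in PBS libraries, without overlap (-0.38, SE 0.13, limma adjusted p = 0.390). Osbpl1a, an oxysterol-binding protein relative, averaged 4.27 ± 0.15 in NPC libraries and 3.90 ± 0.06 in PBS libraries, also without overlap (0.37, SE 0.13). Apoc2, an activator of lipoprotein lipase, had -0.38 (SE 0.18), and Pltp, the phospholipid transfer protein, had 0.50 (SE 0.25).

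Of 23 nuclear receptors, cofactors and target genes 11 were higher and 12 lower, with a median of -0.02. The split was 17 higher and 6 lower after GC and length correction and 15 higher and 8 lower without NPC A, and the median was 0.13 with library weights. Scd2, a stearoyl-CoA desaturase, averaged 6.47 ± 0.19 in NPC libraries and 6.93 ± 0.05 in PBS libraries, without overlap (-0.46, SE 0.12, limma adjusted p = 0.382). Acaca, which makes malonyl-CoA for fatty acid synthesis, averaged 3.72 ± 0.20 in NPC libraries and 3.24 ± 0.28 in PBS libraries (0.48, SE 0.18). Ncor1, a corepressor of nuclear receptors, averaged 7.90 ± 0.10 in NPC libraries and 7.62 ± 0.10 in PBS libraries, without overlap (0.28, SE 0.11). Sbf2, a pseudophosphatase of the myotubularin family and no nuclear receptor, had 0.38 (SE 0.16), and Cpt1a, which admits fatty acids to mitochondria, had -0.28 (unadjusted p = 0.0331).

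**Figure D4:**
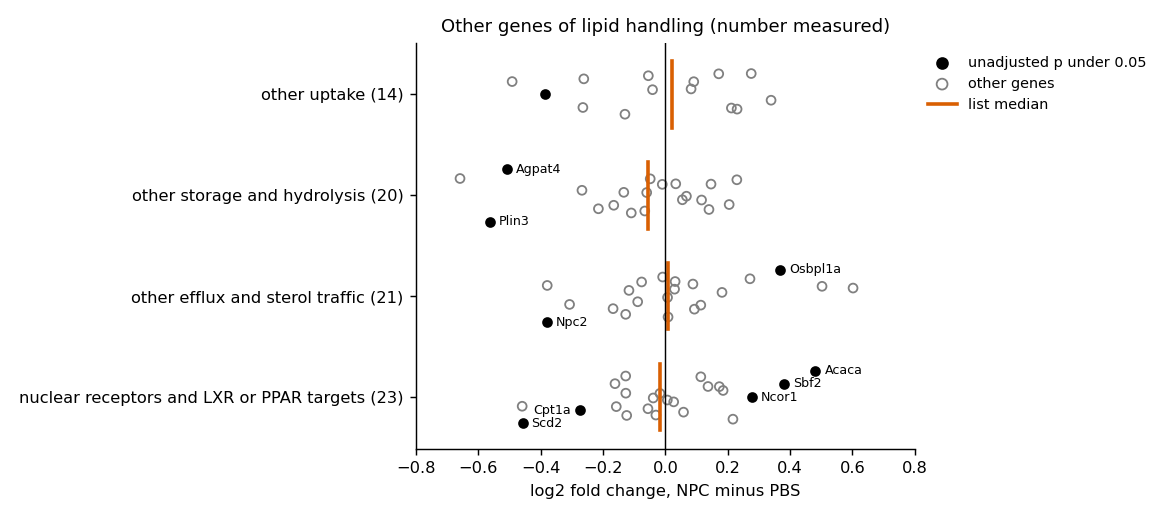
Log2 fold change, NPC minus PBS (horizontal axis), of the measured genes of 4 lists of lipid handling, each point a gene and the orange bar the list median. Filled points are the 10 genes at an unadjusted p under 0.05, labelled in all lists but the uptake list, and the medians lie between -0.05 and 0.02.

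How far each fold change depended on single libraries or on the processing differed between the genes. Over 20 alternatives Fabp5 and Abcg1 kept their direction and an unadjusted p under 0.05 in 20 of 20, and Lpl, Plin2 and Nr1h3 kept their direction. Leaving out the variance trend, a robust prior and the filters on the mean leave every fold change as it was, so those alternatives could turn no direction. Fabp5 and Abcg1 were singled out by their p in these same data. The share of all genes that stay under 0.05 throughout was not taken. Cd36, Abca1 and Apoe each turned in 1 of the 20.

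**Figure D5:**
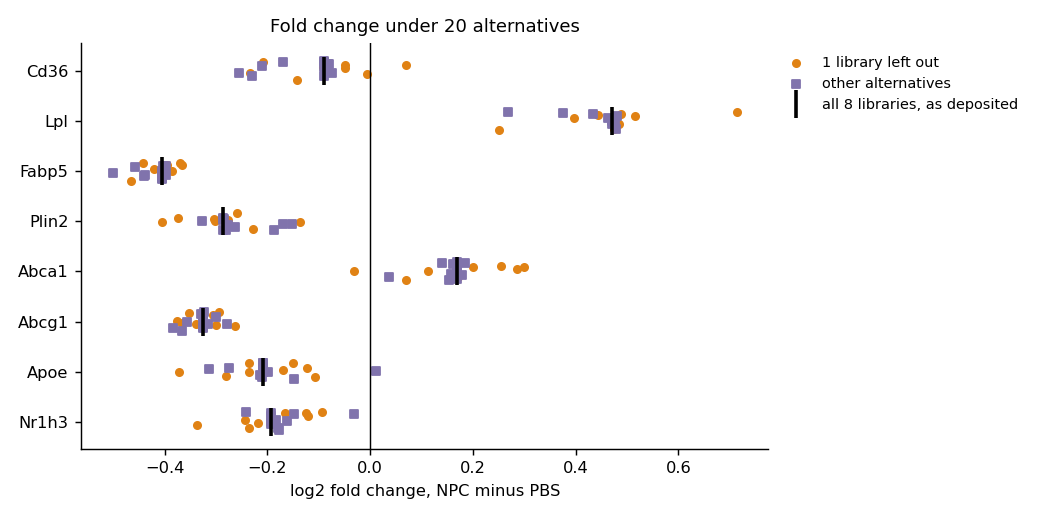
Log2 fold change, NPC minus PBS (horizontal axis), of each gene with all 8 libraries as deposited (black bar), with 1 library left out (orange) and under the other alternatives (purple squares). Fabp5 (-0.50 to -0.37) and Abcg1 (-0.38 to -0.26) stay on 1 side of 0 in narrow ranges, while Lpl runs from 0.25 to 0.71.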

How the data were processed

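RNA of sorted moDCs was sequenced in 8 libraries as single-end reads of 150 bases after 12 PCR cycles, per the labels' protocols. STAR 2.3.0, HTSeq 0.5.3, Trimmomatic, limma and the mm10 build are named, per the submitters' processing notes. For the annotation, the strand setting and any low-count filter the entry is: not given in the sources used here. The authors deposited log2 normalised values for each library, with no division by length. On the linear scale 100% of them are (whole reads + 0.5) times 1 step per library (tolerance 0.01), so whole reads were recovered for depth, thinning and voom weights. No pair of libraries agreed within counting error.

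Groups came from the sample titles. All genes were tested with limma 3.58.1 in R 4.3.3 (treatment as the only term, variance trend, two-sided, Benjamini-Hochberg, threshold 0.05), after a check on simulated reads. Values are mean ± SD. The p-values test NPC against PBS, with the spread between pools, moderated over all genes, as the error. Coordinates, lengths and GC content came from GENCODE vM21; 11368 symbols (92.8%) matched 1 gene. The 8 genes and the lists were chosen with earlier results of these data known. Named besides the 8 were the 4 genes of each lipid list with the smallest p (2 uptake genes are not reported here) and the 2 genes most like each of the 8. Cpt1a was added after its value was seen.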

Additional observations from a re-analysis of the deposited data

How the results depend on the processing

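Across 20 alternatives (library weights, a robust prior, no variance trend, equal medians, quantile normalization, means of at least 1 or 3, adding 1 before the log, voom weights, thinning to the shallowest library, GC and length correction, each library left out, and PBS 1 and NPC A left out together) 0 genes and 0 of the 8 were called. At an unadjusted p under 0.05 in place of the adjusted p there were 1387 genes and 2 of the 8; leaving out 1 library gave 792 to 1846 genes and 2 or 3 of the 8, and library weights gave 2139. The gene added was Plin2 without NPC D (unadjusted p = 0.0251) or Lpl without PBS 4. The split of those 1387 genes was 735 higher and 652 lower, and 622 higher and 763 lower after quantile normalization.

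Fabp5, Abcg1, Lpl, Plin2 and Nr1h3 kept their direction in all 20. With 1 library left out, Cd36 ran from -0.23 to 0.070 (above 0 without NPC C) and Abca1 from -0.031 (without NPC D) to 0.30. Apoe was 0.011 with GC and length correction. The difference of uptake and storage against efflux (0.04) ran from -0.01 to 0.10 with 1 library left out and was -0.03 with GC and length correction, so it has no stable sign. Medians of the lipid lists ran from -0.09 to 0.13 (uptake), -0.09 to 0.02 (storage), -0.05 to 0.06 (efflux) and -0.13 to 0.13 (nuclear receptors and targets). The causes were not tested.

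No paired analysis was possible because the NPC libraries carry letters and the PBS libraries numbers, with no shared replicate label. Depth limited Cd36 and Nr1h3 most, with under 130 reads in each NPC library.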
